A study of Mus musculus with 4 samples.

Results

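The receptors through which activins, bone morphogenetic proteins (BMPs) and TGF-beta act were compared between Hepa1-6 cells wild type for Acvr2a, named NC in the sample titles, and Hepa1-6 cells labelled as Acvr2a knockout, named KO. Hepa1-6 is a mouse hepatocellular carcinoma cell line, so all 4 libraries share that tumour background, and no treatment is given for either group. Each group has 2 libraries. The series' design speaks of subclones of the knockout cells. Whether the KO libraries are separate subclones or cultures of 1 clone, and which part of Acvr2a was altered, is not given in the sources used here. P-values therefore measure the spread between these libraries, which may be technical and in the edgeR fits is taken mostly over many genes. A clone's own differences and the labelled genotype cannot be told apart. The receptor genes were chosen by symbol: Acvr2a, Acvr2b, Bmpr2 and Tgfbr2 (type II receptors), Acvr1, Acvr1b, Acvr1c, Bmpr1a and Tgfbr1 (type I receptors) and Tgfbr3 (a co-receptor). They are 10 of the 54838 genes in each deposited table.

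Ligands of this family assemble a complex of type II and type I receptors, which are transmembrane serine/threonine kinases. The type II receptor phosphorylates the type I receptor, which then phosphorylates SMAD proteins that enter the nucleus together with Smad4. Acvr1b, Acvr1c and Tgfbr1 act on Smad2 and Smad3, while Acvr1 and Bmpr1a act on Smad1, Smad5 and Smad9. In the liver, TGF-beta and activin restrain hepatocyte growth, and BMP signalling controls hepcidin, the iron hormone.

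The libraries held between 11597923 and 13910582 counts, and the receptor genes together took between 0.0297% and 0.0339% of them. The markers of a hepatoma line were present: Krt18, a keratin of liver epithelium, averaged 1066 TPM (a level scaled for transcript length and for the size of the library), and Alb lay between 472.6 and 712.6 TPM, while Ttr did not exceed 0.10 TPM. All 9 listed hepatocyte and hepatoma markers had a count, though Apoa1 stood at only 1.76 to 4.33 TPM and Gpc3 at 0.76 to 6.39 TPM. The summed level of the 9 was 2470 to 2580 TPM in NC and 2842 to 2987 TPM in KO. Of all tested genes 19.7% rose and 18.2% fell (edgeR adjusted p under 0.05). Of the 8 tested markers of this list, 3 rose (Alb, Trf and Gpc3) and 2 fell. Those that fell were Afp, the fetal liver protein alpha-fetoprotein, from 167.4 and 160.2 to 74.1 and 72.9 TPM, and Hnf4a, a hepatocyte transcription factor, from 95.1 and 91.6 to 54.5 and 47.5 TPM. Of 7 fibroblast markers Col3a1 and Lum were at 0, and Dcn made up most of a sum of 1034 to 1097 TPM in NC and 1236 to 1240 TPM in KO. The 5 endothelial markers, with Cdh5 and Tek at 0, summed to at most 0.48 TPM. The 6 leukocyte markers, with Cd3e at 0 and Ptprc at no more than 0.04 TPM, summed to 24.9 to 28.9 TPM in NC and 57.4 to 69.0 TPM in KO, nearly all of it Cd68. By the same test 2 of 3 tested fibroblast markers rose, Pdgfra and Col1a1 (the latter at no more than 0.59 TPM). Cd68 rose, as 1 of 2 tested leukocyte markers, and the 1 tested endothelial marker did not pass. The part of these levels in the receptor results was not tested. In bulk RNA, fewer cells that express a gene and less RNA per cell cannot be told apart.

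The targeted receptor came first. Acvr2a (ENSMUSG00000052155.5) lies on the plus strand of chromosome 2 at 48814109 to 48903269 of GRCm38. Its expected counts were 80.99 and 108.43 in the NC libraries and 74.69 and 97.40 in the KO libraries, and its levels were 1.39, 1.61, 1.21 and 1.47 TPM. The groups overlapped, KO 2 lying above NC 1. The log2 fold change between KO and NC was -0.21 (SE 0.20, 95% interval -0.63 to 0.20, edgeR quasi-likelihood adjusted p = 0.433). The interval in folds ran from 0.644 to 1.15, so a complete loss of the RNA is outside it. These totals over the gene do not check the labels beyond that, since they carry no sequence and cannot show an altered coding region.

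Part of the Acvr2a count was shared with a neighbour. Its exons overlap those of Orc4, a subunit of the origin recognition complex encoded on the opposite strand, over 446 of 5686 exonic bases (7.84%). The Orc4 counts were 587.01, 691.57, 391.31 and 456.60 in the same order of libraries. Neither gene's counts were whole numbers, yet their sums were, within 0.01, in 4 of 4 libraries: 668, 800, 466 and 554. The estimation therefore divided reads between these genes on opposite strands, and how many is not recorded. Orc4 itself fell from 50.8 ± 1.17 to 31.8 ± 2.94 CPM (counts scaled to library size; SD, n = 2). The log2 difference was -0.68 (SE 0.11, edgeR adjusted p = 1.66e-05). Its part in the Acvr2a value was not tested. Of the other receptor genes only Bmpr1a had a fractional count, 953.97 in NC 2, which with 1.03 for Gm17110 on the opposite strand made 955. The other 8 had whole counts in every library.

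The receptor genes share only short identical stretches with each other. Over the 45 pairs of receptor genes, the longest identical run between their longest coding transcripts in the GENCODE M21 set was 22 bases, and 20 bases within coding sequence. Acvr2a and Acvr2b, the paralogous activin type II receptors, shared at most 14 bases in a row. The longest coding run, between Acvr1 and Bmpr1a, is shown as the longest stretch of coding sequence that a read could match in either of 2 receptor genes (capitals mark bases identical in both).
Acvr1 and Bmpr1a: CTGAAGAGCAAAAACATCCT

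The promoters of the targeted gene and of the receptor genes past the threshold below are shown as RefSeq gives them on GRCm38.p6, 250 bases before to 50 after the start. Capitals mark every GC box (GGGCGG on either strand). Acvr2a is at chr2:48813859-48814158 (plus strand), Acvr1b at chr15:101173822-101174121 (plus strand) and Acvr1 at chr2:58566779-58567078 (minus strand).
Acvr2a: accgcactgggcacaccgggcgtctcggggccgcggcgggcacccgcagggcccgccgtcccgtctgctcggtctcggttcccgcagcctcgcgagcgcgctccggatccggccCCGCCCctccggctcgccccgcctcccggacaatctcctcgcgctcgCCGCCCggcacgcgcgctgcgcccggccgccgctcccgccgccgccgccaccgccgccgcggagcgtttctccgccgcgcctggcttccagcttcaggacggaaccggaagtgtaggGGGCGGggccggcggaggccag
Acvr1b: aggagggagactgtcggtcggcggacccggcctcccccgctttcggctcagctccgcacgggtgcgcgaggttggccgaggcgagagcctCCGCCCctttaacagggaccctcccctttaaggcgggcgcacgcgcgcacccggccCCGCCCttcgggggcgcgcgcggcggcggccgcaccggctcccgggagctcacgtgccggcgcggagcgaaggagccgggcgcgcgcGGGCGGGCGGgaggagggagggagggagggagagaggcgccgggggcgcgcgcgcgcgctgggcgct
Acvr1: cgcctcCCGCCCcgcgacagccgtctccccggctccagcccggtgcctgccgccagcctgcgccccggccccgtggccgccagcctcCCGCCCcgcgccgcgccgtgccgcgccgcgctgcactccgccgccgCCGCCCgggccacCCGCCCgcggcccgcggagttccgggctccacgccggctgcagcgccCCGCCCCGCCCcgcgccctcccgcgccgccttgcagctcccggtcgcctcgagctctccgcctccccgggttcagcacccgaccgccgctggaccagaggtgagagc
The windows hold 3 GC boxes for Acvr2a, 4 for Acvr1b and 6 for Acvr1, and their GC content is 80.3%, 79.7% and 83.7%, against a median of 52.7% over all 32851 promoter windows. RefSeq windows were found for 9 of the 10 genes, 11 windows in all, of which 8 hold a GC box, as do 35.7% of all windows. The palindromic SMAD element GTCTAGAC, searched on both strands, is in 0 of the 11 and in 0.213% of all windows. The shorter run GTCTG, on either strand, is in 4 of the 11, among them Acvr2a and Acvr2b but neither Acvr1 nor Acvr1b, and in 49.6% of all windows.

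Across the receptor family, 9 of 10 genes passed the filter on low counts, each of them in both groups. In KO, Acvr1b rose and Acvr1 fell, and the other 7 did not pass an adjusted p of 0.05 (edgeR quasi-likelihood). That is 2 of 9, or 22.2%, where 37.9% of all 12510 tested genes passed (19.7% higher and 18.2% lower), and the receptor genes' share was not above that of genes at large. Of all calls 51.9% were higher in KO, and 68.0% on log2(TPM + 1). Their median log2 fold change was 0.043, with 5 positive and 4 negative values, beside -0.0037 for all tested genes. The median size of the change was 0.21 on the log2 scale, beside 0.28 for all tested genes. The CPM values of the groups did not overlap for 4 receptor genes (1 higher in KO, 3 lower), where 69.4% of all tested genes did not. In TPM they did not overlap for 6 of the 9, where 62.7% of all tested genes did not.

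**Figure D1:**
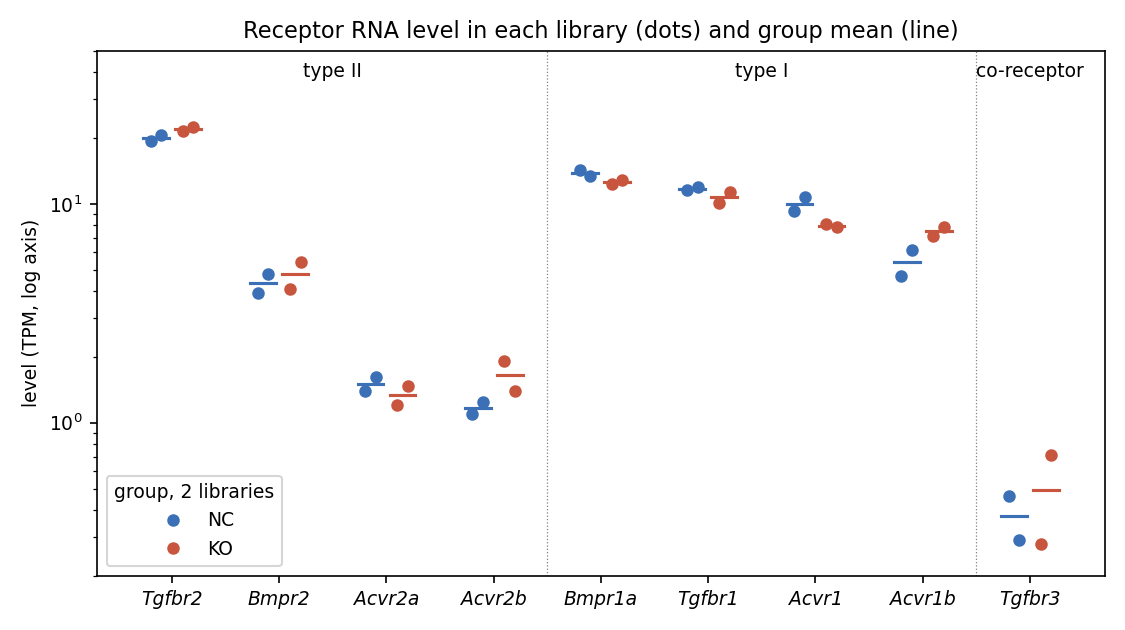
RNA level of 9 receptor genes in TPM on a log axis, with a dot for each library (NC blue, KO red) and a line for the mean of the 2 libraries in a group; Acvr1c, at 0 to 0.01 TPM, is not drawn. Tgfbr2 stands highest at 19.4 to 22.4 TPM, and the activin type II receptor genes Acvr2a and Acvr2b lie between 1.09 and 1.91 TPM.

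Among the type II receptor genes, the one for TGF-beta was far the most abundant per length. Tgfbr2 (chromosome 9, 116084293 to 116175360, minus strand), which binds TGF-beta directly, was at 19.4 and 20.5 TPM in the NC libraries and at 21.5 and 22.4 TPM in the KO libraries. In TPM both KO libraries were above both NC libraries, but in CPM the groups overlapped. The log2 fold change on counts was 0.043 (SE 0.09, 95% interval -0.15 to 0.24, edgeR adjusted p = 0.758). Bmpr2 (chromosome 1, 59763400 to 59879014, plus strand), the BMP type II receptor, was at 3.90, 4.76, 4.09 and 5.42 TPM. In TPM, KO 1 lay between the NC libraries and KO 2 above them. In CPM, KO 1 (44.6) lay below both NC libraries (46.4 and 52.2) and KO 2 (61.8) above them. The log2 difference was 0.11 (SE 0.12, interval -0.14 to 0.35, adjusted p = 0.503), but it passed 0.05 without KO 1 (0.32, adjusted p = 0.0246) and was -0.15 without KO 2.

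Acvr2b (chromosome 9, 119402118 to 119434995, plus strand), the other activin type II receptor, was counted 26 and 39 times in the NC libraries and 32 and 40 times in the KO libraries. Its levels were 1.09, 1.24, 1.91 and 1.39 TPM, both KO libraries above both NC libraries, while in CPM the groups overlapped (2.29, 2.82, 2.43 and 2.96). TPM divides by a length estimated in each library, and that length was 1717 bases in KO 1 against 2468, 2787 and 2604 in NC 1, NC 2 and KO 2. The fold change on counts was 1.05 with an interval of 0.667 to 1.66 (log2 fold change 0.071, SE 0.32, edgeR adjusted p = 0.887). At this depth a 1.5-fold rise of Acvr2b and no change could not be told apart.

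Of the type I receptor genes, Acvr1b changed upward. Acvr1b (chromosome 15, 101174067 to 101213684, plus strand) encodes ALK4, the principal type I receptor for activin. Its counts were 208 and 318 for NC against 338 and 400 for KO, or 4.66, 6.14, 7.11 and 7.87 TPM. Both KO libraries were higher than both NC libraries, and the NC libraries were farther apart than the KO libraries. The mean level went from 20.6 ± 3.30 to 27.6 ± 2.80 CPM (SD, n = 2), a fold of 1.33 (interval 1.10 to 1.61). The log2 fold change was 0.42 (SE 0.13, edgeR adjusted p = 0.0160). The call was lost without NC 1 (0.26, adjusted p = 0.209), without KO 2 (0.31, adjusted p = 0.127), with DESeq2 (0.42, adjusted p = 0.0793) and on log2(TPM + 1) (0.42, adjusted p = 0.139).

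Acvr1 moved the other way. Acvr1 (chromosome 2, 58388644 to 58567157, minus strand) encodes ALK2, a type I receptor that serves BMPs and can also bind activin. Its counts were 258 and 350 for NC against 232 and 255 for KO, or 9.26, 10.79, 8.06 and 7.84 TPM. Both KO libraries were lower than both NC libraries. The level went from 24.0 ± 1.82 to 18.2 ± 0.90 CPM (SD, n = 2), a fold of 0.760 (interval 0.630 to 0.916). The log2 fold change was -0.40 (SE 0.13, edgeR adjusted p = 0.0188). The call was lost without NC 2 (-0.31, adjusted p = 0.154), without KO 1 (-0.35, adjusted p = 0.0772), with DESeq2 (-0.40, adjusted p = 0.0979) and on log2(TPM + 1) (-0.30, adjusted p = 0.215). DESeq2 called 0 of 9 receptor genes, with 2 at an unadjusted p under 0.05, where it called 25.7% of all genes. The limma fit on log2(TPM + 1) also called 0, with 1 at an unadjusted p under 0.05, where it called 17.3%.

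Bmpr1a and Tgfbr1, the type I receptors for BMP and TGF-beta (ALK3 and ALK5), were lower in both KO libraries but did not pass. Bmpr1a (chromosome 14, 34410734 to 34503341, minus strand) was at 14.19 and 13.46 TPM in the NC libraries and at 12.29 and 12.79 TPM in the KO libraries. The groups did not overlap, and KO and NC differed by a log2 value of -0.21 (SE 0.10, interval -0.41 to -0.0082, edgeR adjusted p = 0.0938). Tgfbr1 (chromosome 4, 47353222 to 47414931, plus strand) was at 11.53, 11.91, 10.07 and 11.31 TPM. Here too the KO libraries were the lower ones, with a log2 difference of -0.20 (SE 0.10, interval -0.41 to 0.0087, adjusted p = 0.123), which passed without KO 2 (-0.32, adjusted p = 0.0421). Both intervals hold the estimate for Acvr1, and whether these type I receptor genes differ in response was not tested.

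The remaining receptor genes were scarce. Tgfbr3 (chromosome 5, 107106570 to 107289629, minus strand), the betaglycan co-receptor that presents TGF-beta and, with inhibin, can occupy activin type II receptors, had 15, 21, 15 and 33 counts. KO 1 had a lower CPM than either NC library and KO 2 a higher one, so the log2 difference of 0.33 (SE 0.42, interval -0.52 to 1.19, edgeR adjusted p = 0.563) turned to -0.32 without KO 2. Its exons overlap 297 bases of Gm43422 on the same strand, which had 0 counts. Acvr1c (chromosome 2, 58267453 to 58357895, minus strand), which encodes ALK7, a type I receptor for activin B and Nodal, had 1 count in NC 2 and 0 in the other libraries. Its exons overlap those of Gm13544 on the opposite strand over 168 bases, and Gm13544 had 40, 42, 29 and 32 counts. Both genes had whole counts in every library. A count of 0 for Acvr1c over both KO libraries allows up to 3 counts, or 0.114 CPM. That limit covers counting error only, not reads that may have gone to Gm13544. Acvr1c was not tested.

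**Figure D2:**
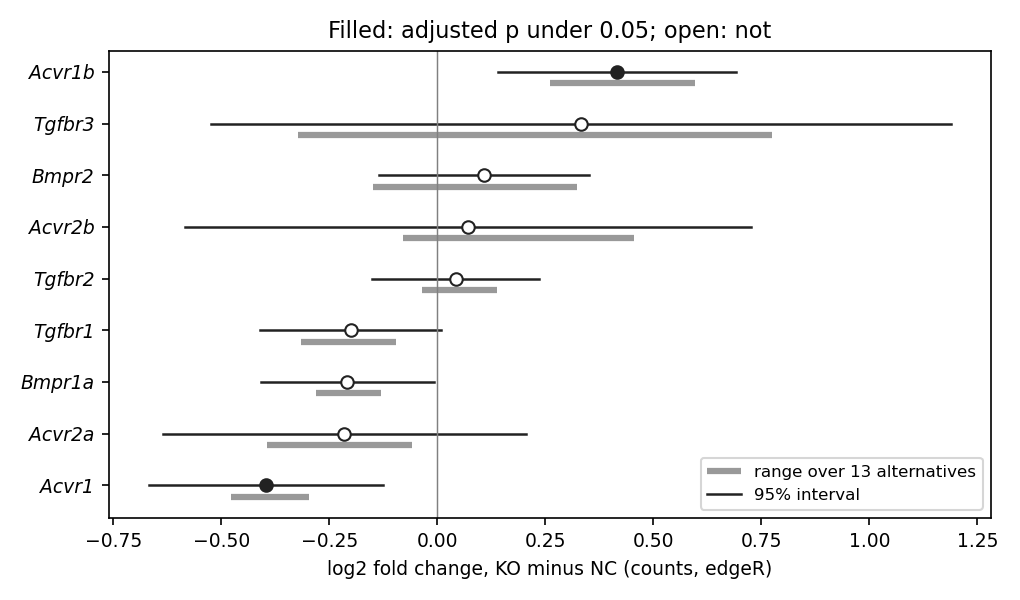
Log2 fold change between KO and NC for the 9 tested receptor genes from edgeR on counts, with its 95% interval (thin line) and the range over 13 alternatives (grey bar). Acvr1b at 0.42 and Acvr1 at -0.40 are the filled points past an adjusted p of 0.05, and the widest intervals belong to Tgfbr3 and Acvr2b.

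Within each group the genes kept nearly one order of level. In NC the mean TPM ran Tgfbr2, Bmpr1a, Tgfbr1, Acvr1, Acvr1b, Bmpr2, Acvr2a, Acvr2b, Tgfbr3 and Acvr1c. The only neighbours whose NC libraries overlapped were Acvr1b (5.40 ± 1.05 TPM) and Bmpr2 (4.33 ± 0.61 TPM, SD, n = 2). In KO the order differed in 1 place, Acvr2b (1.65 ± 0.37 TPM) standing before Acvr2a (1.34 ± 0.18 TPM), and these libraries overlapped. So did those of Acvr1 (7.95 ± 0.16 TPM) and Acvr1b (7.49 ± 0.54 TPM) in KO, which in NC were 4.63 TPM apart and did not overlap.

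Receptor make-up was then taken within each library, as the share of the summed TPM of the 10 genes, which was 65.8, 70.7, 66.5 and 71.2 TPM in NC 1, NC 2, KO 1 and KO 2. Shares add to the whole, so a higher share of 1 gene lowers the others. Type II receptor genes held 39.1% and 39.8% in the NC libraries and 43.2% and 43.1% in the KO libraries. Tgfbr2 made up most of that, with 29.4% and 29.0% in NC and 32.3% and 31.5% in KO. The activin type II receptor genes Acvr2a and Acvr2b together held 3.77%, 4.03%, 4.69% and 4.02%, and the groups overlapped.

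Among type I genes, Acvr1 held 14.1% and 15.3% in NC and 12.1% and 11.01% in KO. Acvr1b went the other way, from 7.08% and 8.68% to 10.7% and 11.1%. Bmpr2, Bmpr1a and Acvr1 together held 41.5% and 41.0% in NC and 36.7% and 36.6% in KO, a difference of -4.62 percentage points. This set was picked by hand and leaves out Acvr2a and Acvr2b, so it is not a total of BMP receptors. The shares did not overlap for 7 of 9 genes, and the same measure did not overlap for 60.0% of all tested genes. With 1 fixed length per gene in place of each library's own, 5 of 9 did not overlap, and Acvr2b and Bmpr1a were the genes that joined those overlapping. With 2 libraries against 2, a two-sided exact permutation test cannot go below p = 0.333, which is the value for each of those 7 (0.429 adjusted over 9 genes), so no share passed a test.

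**Figure D3:**
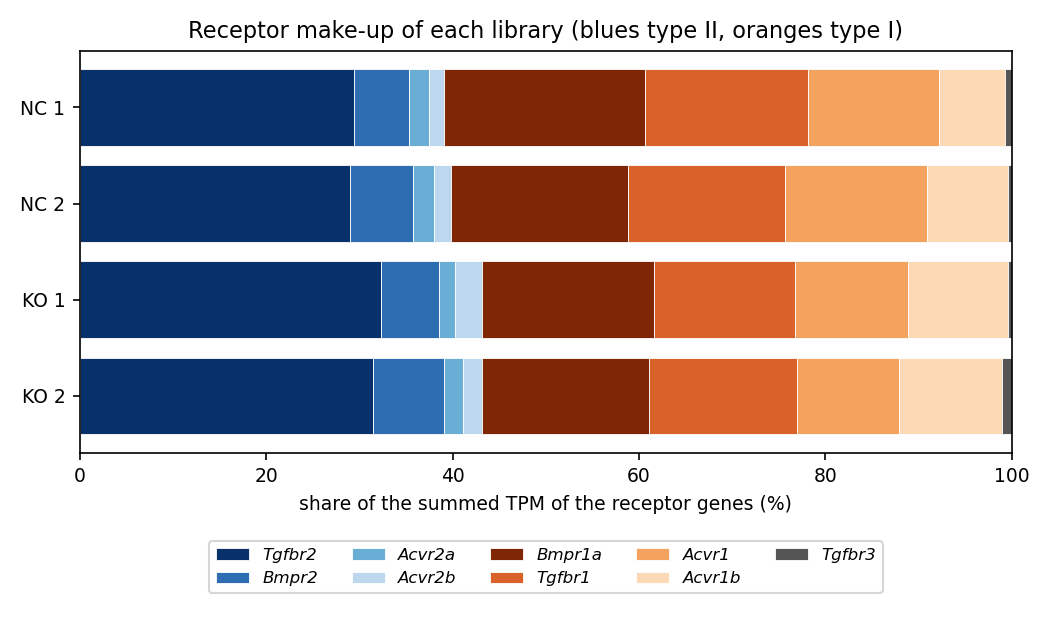
Share of the summed TPM of the receptor genes in each library, in percent, with type II genes in blues, type I genes in oranges and Tgfbr3 in grey (Acvr1c, at 0.0141% or less, is not drawn). The blue part ends at 39.1% and 39.8% in NC and near 43% in KO, and the palest orange, Acvr1b, is wider in both KO libraries.

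Ratios of receptors to each other were followed in 5 comparisons. Summed type II to type I TPM was 0.649 and 0.665 in the NC libraries and 0.765 and 0.771 in the KO libraries. The log2 ratio was higher in KO by 0.23, with a spread of 0.024 (SD) in NC and 0.0072 in KO. On 1 fixed length per gene it was 0.651 and 0.677 in NC and 0.740 and 0.773 in KO. The log2 difference was then 0.19, with the KO libraries farther apart. This ratio is another form of the type II and type I shares and adds no support to them. Acvr1b to Acvr1 was 0.503 and 0.569 in NC and 0.882 and 1.004 in KO. Its log2 difference was 0.81 (1.76-fold), and stood at 0.72 to 0.91 with any 1 library left out and at 0.82 on fixed lengths. Acvr1b and Acvr1 are the receptor genes called in opposite directions in these same libraries, so the ratio restates those calls and adds no support. How often ratios of other gene pairs do not overlap was not tested. Tgfbr2 to Tgfbr1 was 1.68 and 1.72 in NC and 2.14 and 1.98 in KO.

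The ratio of Acvr2b to Acvr2a, the activin type II receptors, depended on the length estimate. In TPM it was 0.784 and 0.770 in NC and 1.58 and 0.946 in KO, a log2 difference of 0.65. That difference was 0.28 without KO 1 and 1.02 without KO 2. On 1 fixed length per gene, the mean over the libraries, it was 0.812, 0.910, 1.08 and 1.04, a log2 difference of 0.30. Both KO libraries stayed above both NC libraries, and KO 1 no longer stood apart. Bmpr2 to Bmpr1a overlapped between the groups, at 0.275, 0.354, 0.333 and 0.424. The exact permutation p was 0.667 for that ratio and 0.333 for the other 4 (0.417 adjusted over the 5), the smallest this design allows.

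**Figure D4:**
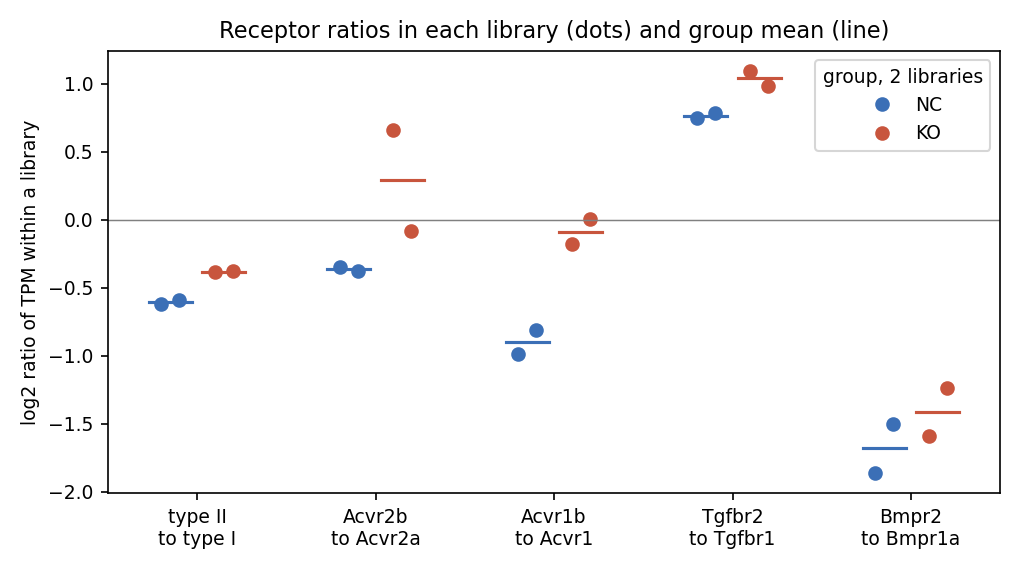
Log2 ratio of receptor TPM within each library (dots; NC blue, KO red) with the mean of the 2 libraries in a group (line). Acvr1b to Acvr1 moves from -0.99 and -0.81 in NC to -0.18 and 0.0055 in KO, and Bmpr2 to Bmpr1a overlaps between the groups.

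The deposited tables also give each gene's mean transcript length, weighted by the estimated abundance of its transcripts, which shifts when transcripts are used in other proportions. Of 8 receptor genes with counts and more than 1 annotated transcript, the lengths of the groups did not overlap for 1, Tgfbr2, where they did not for 36.9% of all tested genes of that kind. Acvr2a stood at 5686 bases in every library, so all of its estimated abundance lay on its 1 coding transcript, Acvr2a-201, and none on the shorter non-coding Acvr2a-202. For Tgfbr2 the lengths were 5074 and 5197 bases in NC and 4954 and 5042 in KO. Its 2 annotated transcripts are Tgfbr2-202, with 8092 bases and 592 codons, and Tgfbr2-201, with 3476 bases and 567 codons, so the length fixes their proportions.

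The coding difference between these transcripts is an exon of 75 bases, or 25 codons, at chr9:116158271-116158345 on the minus strand of GRCm38, in the part that encodes the extracellular region. It is printed because it separates the receptor forms (capitals mark the exon, with 15 coding bases on each side).
Tgfbr2-202: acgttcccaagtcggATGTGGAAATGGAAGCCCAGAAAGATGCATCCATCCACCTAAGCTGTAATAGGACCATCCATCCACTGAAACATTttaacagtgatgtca
The estimated share of Tgfbr2-202 was 34.6% and 37.3% in the NC libraries and 32.0% and 33.9% in the KO libraries. Both KO libraries were below both NC libraries, a mean difference of -2.98 percentage points, with SDs of 1.88 in NC and 1.35 in KO (n = 2). Tgfbr2-201 stood at 12.7 and 12.9 TPM in NC and 14.6 and 14.8 TPM in KO, while Tgfbr2-202 ranged from 6.70 to 7.65 TPM with the groups overlapping. The exact permutation p for the length was 0.333 (1 adjusted over 8 genes). The length difference, -137.8 bases, was -76.4 without NC 2, and from -199.1 to -93.7 without 1 of the other libraries. The transcripts also differ in their untranslated ends, so these estimates do not measure the exon alone.

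The rest of the pathway was read from 4 lists beside the receptors. Among other receptors and co-receptors, Bmpr1b, a BMP type I receptor, and the Nodal co-receptor Tdgf1 had no counts. Acvrl1 (ALK1) had 3, 3, 9 and 5, and Amhr2, the anti-Müllerian hormone receptor, 0, 2, 2 and 0. Neo1, a receptor for RGM proteins, was the most abundant of the list at 15.6 to 18.5 TPM, with a log2 fold change of -0.068 (SE 0.10, edgeR adjusted p = 0.612). Rgmb, a BMP co-receptor, ranged from 2.59 to 7.87 TPM with the groups overlapping (adjusted p = 0.515).

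Of the 13 genes of that list with a row, 6 passed the filter, and 4 of those rose in KO in the edgeR fit, where 19.7% of all tested genes rose. Eng, endoglin, a TGF-beta and BMP co-receptor, passed the filter in both groups and was counted 15 and 19 times in NC and 45 times in each KO library. Its exons overlap those of Fpgs on the opposite strand over 61 of 4048 bases. Eng had whole counts in every library, and Fpgs, at 493, 503, 519 and 408 counts, did not pass the test (adjusted p = 0.226). The log2 difference was 1.32 (SE 0.35, adjusted p = 0.00352). Bambi, a decoy receptor without a kinase, was counted 10, 7, 23 and 27 times (1.45, SE 0.46, adjusted p = 0.0136). Rgma, a BMP co-receptor, had 8, 10, 22 and 24 (1.26, adjusted p = 0.0286), and Tmprss6, a protease of the BMP and hepcidin pathway, 6, 3, 17 and 11 (1.52, adjusted p = 0.0471). These last 3 passed the filter through the KO libraries only, so the count and median (1.29) of this list support nothing. With DESeq2, 1 of the 6 passed, Eng, where 25.7% of all genes did. Rgma and Tmprss6 lost their calls whichever library was left out, and Bambi without NC 2, KO 1 or KO 2.

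Receptor regulators moved in both directions. Of 23 tested, 3 rose and 6 fell (edgeR adjusted p under 0.05), 39.1% against 37.9% of all genes, with a median log2 fold change of -0.083. Smad7, which recruits ubiquitin ligases to type I receptors, rose from 29.4 ± 3.33 to 43.3 ± 2.16 TPM (SD, n = 2), a log2 difference of 0.56 (SE 0.09, adjusted p = 4.04e-05). Smad6, the inhibitor that acts mainly on BMP type I receptors, fell from 9.02 ± 0.25 to 5.66 ± 0.021 TPM (-0.79, SE 0.14, adjusted p = 6.10e-05). Fkbp1a, which binds type I receptors and holds them inactive, fell from 583.6 ± 26.4 to 441.6 ± 6.99 TPM (-0.48, SE 0.09, adjusted p = 0.000192). Cd109, a TGF-beta co-receptor, rose from 1.16 ± 0.028 to 2.16 ± 0.30 TPM (0.93, SE 0.20, adjusted p = 0.000483), and lost its call on log2(TPM + 1) (adjusted p = 0.0520).

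Of the SMADs that receptors phosphorylate and Smad4, 5 of 6 were tested and 0 passed (edgeR, 1 at an unadjusted p under 0.05; DESeq2, 0), where 37.9% of all tested genes did. The count was 1 with the replicate block, upper quartile scaling or robust quasi-likelihood, and without NC 2 or without KO 1. The gene at an unadjusted p under 0.05 was Smad3, chosen after its value was seen. Over NC 1, NC 2, KO 1 and KO 2 it stood at 34.0, 53.4, 68.8 and 62.5 TPM. By count the same libraries held 1031, 1499, 1501 and 1637, so NC 2 and KO 1 were nearly equal before scaling for depth. The log2 difference on counts was 0.24 (SE 0.10, edgeR adjusted p = 0.0553). TPM also carries each library's length estimate, whose part in the wider TPM gap was not tested. The list's median was -0.023. Smad9 had no counts. Among 33 ligand genes 7 were tested and 2 rose (28.6% called, where 37.9% of all tested genes were called and 19.7% rose), Gdf15 (0.81, SE 0.12, adjusted p = 8.78e-06), a stress-induced family member, and Gdf11 (0.69, SE 0.14, adjusted p = 0.000233), which signals through activin type II receptors. The median over the 7 was 0.011. Inhba, which encodes the subunit of activin A and was named after its value was seen, had 12, 11, 8 and 4 counts, passed the filter through the NC libraries only and did not pass the test (-1.01, SE 0.58, adjusted p = 0.176). Inhbb, the subunit of activin B, had 1, 0, 2 and 4 counts, and Mstn none.

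**Figure D5:**
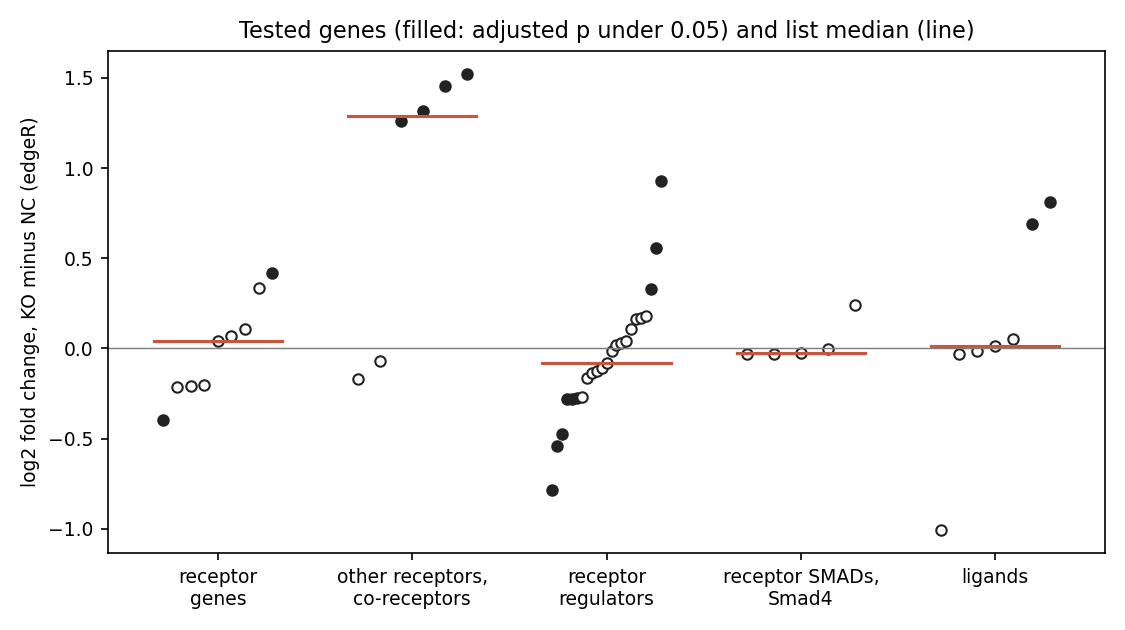
Log2 fold change between KO and NC of each tested gene (edgeR; filled where the adjusted p was under 0.05) for the receptor genes and 4 pathway lists, with each list's median as a line. The receptor genes have a median of 0.043, and the 4 filled points at 1.26 to 1.52 are Eng, Bambi, Rgma and Tmprss6. Of these, Bambi, Rgma and Tmprss6 passed the filter on low counts through the KO libraries only.

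Over the 41 tested genes of the 4 lists, those whose pattern over the 4 libraries lay closest to Acvr2a were Wwp1, Zfyve9 and Ppp2r2a, at Euclidean distances of 0.10, 0.11 and 0.17 between log2 CPM values centred on each gene's mean. Of all 12510 tested genes, 282 lay closer than the last of these, and nothing is drawn from the likeness. Wwp1 and Ppp2r2a were lower in KO (edgeR adjusted p = 0.0287 and 0.0212). Zfyve9 (adjusted p = 0.358) and Acvr2a (adjusted p = 0.433) did not pass that test.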

How the data were processed

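RNA was sequenced from 2 NC and 2 KO libraries of Hepa1-6 cells, made with a directional kit, per the labels' protocols. The submitters' processing notes list FastQC, STAR, RSEM and DESeq2 and the builds GRCm38 and mm10, without versions. The annotation and strand setting are not given in the sources used here. Per the file headers, the deposited values include expected counts, which are estimated counts for each gene without scaling for depth. The deposited TPM and FPKM are the authors' length-scaled values (FPKM was not used), and the transcript lengths in the deposited tables are other values in bases.

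Of 54838 gene rows, 53947 matched GENCODE M21 with version, the 10 receptor genes included, which gave coordinates. Counts were rounded and genes kept by filterByExpr (about 0.757 CPM in 2 libraries), which left 12510 genes. Groups were compared with edgeR 4.0.16 (R 4.3.3) quasi-likelihood tests, TMM scaling (factors 0.981 to 1.02) and Benjamini-Hochberg adjustment over all 12510, at 0.05. The fit drew each gene's variance towards a trend over all genes, with 25.8 prior degrees of freedom. Its p-values therefore rest mostly on that trend and less on a gene's own libraries. Standard errors are the log2 fold change divided by the root of the F statistic. CPM uses TMM-scaled totals. The fit was tested on simulated data. Alternatives used DESeq2 1.42.0, limma 3.58.1 on log2(TPM + 1) and log2(TPM + 0.1), other scalings and filters, and libraries left out in turn. The receptor genes and lists were chosen with earlier results of these data known. Named genes are all 10 receptor genes and up to 4 called genes with the lowest p per pathway list. Co-receptors with at least 10 mean counts, genes overlapping a receptor or co-receptor gene, and the 3 nearest to Acvr2a were added. Pathway genes named outside these rules are Bmpr1b, Tdgf1, Acvrl1, Amhr2, Smad9, Inhbb and Mstn, with few or no counts, and Smad3 and Inhba. Exact permutation tests were two-sided (scipy 1.17.1). PCR copies were not separated from molecules, so intervals and limits cover counting error and the spread of these libraries only.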

Additional observations from a re-analysis of the deposited data

How the results depend on the processing

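The number of called receptor genes was 2 in the count fits with other scalings, other filters, robust quasi-likelihood and the replicate block. It was 0 with DESeq2, 0 on log2(TPM + 1) and 0 on log2(TPM + 0.1), and the cause was not tested. With any 1 library left out, Acvr1b and Acvr1 were never called together. Their log2 fold changes then ranged from 0.26 to 0.60 for Acvr1b and from -0.48 to -0.31 for Acvr1. All genes past the threshold numbered 4741 (51.9% higher), 2158 on log2(TPM + 1) and 2099 on log2(TPM + 0.1) (68.0% higher in the latter), with 3507 to 4488 when 1 library was left out. The pathway lists' 15 calls became 6 and 6 on those scales, and 11 to 12 with 1 library left out. Acvr2a stayed negative and uncalled under all 13 alternatives, from -0.40 to -0.059. With 1 library left out, uncalled fold changes changed sign: Acvr2b ranged from -0.080 to 0.24, Bmpr2 from -0.15 to 0.32, Tgfbr2 from -0.035 to 0.11, Tgfbr3 from -0.32 to 0.77, Rgmb from -0.44 to 0.052 and Neo1 from -0.17 to 0.033, and the Bmpr2 share from -0.18 to 1.28 percentage points. Neo1 was 0.013 on log2(TPM + 1) and 0.014 on log2(TPM + 0.1). Receptor genes with lengths not overlapping numbered 1, 3 with the effective length, which also carries each library's fragment length, and 2 to 5 with 1 library left out, where smaller groups overlap less by construction.

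With the replicate block, 2 receptor genes, 15 pathway genes and 5006 genes in all were called, and Tmprss6 lost its call (adjusted p = 0.0605), as it did with no filter on low counts (adjusted p = 0.0734). The titles' numbers are only numbers: the deviations of same-numbered libraries from their group means had a correlation of -0.012 across genes. Depth limits Acvr2b, Tgfbr3 and Acvr1c most.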
